A study of Caenorhabditis elegans with 24 samples.

Results

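The nuclear hormone receptors described here are the genes of Caenorhabditis elegans whose WormBase symbol is nhr- and a number, without nhr-49, nhr-57, nhr-66 and nhr-80. The count tables held 283 such rows, and 279 remained once those 4 were set aside. Of the 279 members, 258 exceeded 1 CPM (counts scaled to each library's total of reads on genes) in at least 4 of the 24 libraries and were tested, as part of 19050 genes tested of 44968 identifiers, and 21 did not. The tested members comprised 246 protein-coding genes and 12 pseudogenes.

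Nuclear hormone receptors are transcription factors that pair a zinc finger DNA-binding domain with a ligand-binding domain, so that a small lipophilic molecule, a metabolite or a toxin can change which genes they switch on or off. The family is greatly expanded in nematodes. A handful of its members have clear insect counterparts, which act in moulting and developmental timing, and most of the others descend from an ancestor related to HNF4, a receptor of liver and gut in vertebrates. Worm receptors with a known function adjust fat breakdown, the use of vitamin B12 and propionate, and the defence against toxins and pathogens, often in the intestine.

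All larvae were of the strain LRB269, in which avr-14(vu47), avr-15(vu227), glc-1(pk54) and glc-3(ok321) take away glutamate-gated chloride channels that ivermectin acts on, and the transgene dukIs10 puts avr-15 back under the pharyngeal myo-2 promoter, beside Pmyo-2::mCherry and Phlh-8::GFP. Ivermectin then acts on the pharynx, the feeding organ, so that larvae of this line meet bacteria without swallowing them. First-stage (L1) larvae that had hatched without food were sampled in 6 conditions of 4 libraries each. They were IvF at 24 h (5 ng/mL ivermectin and 25 mg/mL HB101 bacteria), IvS at 24 h (ivermectin, no bacteria), IvF at 1 h, IvS at 1 h, F at 1 h (bacteria and the DMSO vehicle, fed) and S at 1 h (DMSO, starved). The method gives the 4 libraries of a condition as biological replicates. No larvae without ivermectin were sampled at 24 h, and every result comes from this 1 transgenic line.

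The 16 libraries with ivermectin held 14498061 to 19448998 reads on genes and the 8 libraries without it 8690378 to 14139935. Reads outside annotated features made up 4.39% to 11.3% with ivermectin and 2.67% to 3.70% without it, and reads shared by several genes 2.97% to 3.68% with it and 6.59% to 10.2% without it. The replicate numbers also form separate sets, so that the drug and the set of libraries cannot be told apart. F and S libraries are numbered 1 to 4, and those with ivermectin are called here by their labels, as in IF_1hr_181 for IvF and I_1hr_181 for IvS at 1 h, with 24hr in the place of 1hr for the later time. Intestinal, pharyngeal, muscle, epidermal, germ line and neuronal markers had reads in every library, but several were uneven. The intestinal elt-2 had 12.2 to 46.1 CPM and ges-1 10.6 to 125 CPM. The pharyngeal myo-2 had 180 to 3527 CPM and the muscle gene myo-3 37.6 to 702 CPM. The epidermal dpy-7 had 0.498 to 20.9 CPM, and so was under 1 CPM at its lowest. The sperm gene msp-3 stayed at or below 0.731 CPM. The yolk genes of adult intestine were present at low and uneven levels, with vit-2 at 0.337 to 41.3 CPM (median 8.44) and vit-6 at 1.07 to 44.3 CPM (median 10.5) over the 24 libraries, and their part in the receptor results was not tested. In whole larvae, fewer cells of a type and less RNA per cell cannot be told apart.

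Some libraries stood apart in the receptors themselves. F replicate 3, IF_1hr_181 and IF_1hr_186 were each higher than all other 21 libraries for 8 of the 258 members (3.10%), against 134 of all 19050 genes (0.703%). The 8 were nhr-78, nhr-205, nhr-12, nhr-11, nhr-125, nhr-237, nhr-238 and nhr-62. These 3 libraries were picked after seeing the data. The shares therefore cannot decide whether receptors were affected more than other genes. S replicate 4 departed from its group about as often in the members as in all genes. It lay over 1 log2 unit above the median of the other S libraries for 28 members (10.9%; all genes 11.3%) and over 1 unit below it for 9 (3.49%; all genes 3.84%). Values without these libraries are given beside many of the calls that they touch, but not beside all of them. The interaction of nhr-103, for instance, has none.

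The receptors were mostly low to moderate in level. Averaged over all 24 libraries, the 258 members had a median of 10.1 CPM (quartiles 2.63 and 24.9, highest 455.6), against a median of 8.71 CPM over all genes tested. In RPKM, the CPM per kilobase of annotated exon, the 5 highest levels were those of nhr-97 (97.5 RPKM), nhr-1 (79.9 RPKM), nhr-114 (74.5 RPKM), nhr-68 (72.2 RPKM) and nhr-46 (64.4 RPKM). The 5 lowest of the tested members were nhr-276, nhr-196, nhr-247, nhr-266 and nhr-26, at 0.511 down to 0.211 RPKM. After 24 h, nhr-97 had 335 to 490.2 CPM in IvF, against 359.8 to 498 CPM in IvS. After 1 h it had 474 to 577 CPM in IvF against 438 to 494 CPM in IvS, and 417 to 579 CPM in F against 336 to 508 CPM in S. Its conditions overlapped throughout, and it was called in none of the 9 comparisons. nhr-1 also passed no threshold for food, with 191 to 225 CPM in IvF against 254 to 263 CPM in IvS at 1 h (log2 fold change -0.32 ± 0.12 SE, adjusted p = 0.17). The summed level of the 258 members had medians over the libraries of 5769 CPM in IvF and 5439.6 CPM in IvS after 24 h, 6204 CPM in IvF and 6130.5 CPM in IvS after 1 h, and 5170.4 CPM in F and 5585 CPM in S.

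In the annotation of the reference assembly WBcel235, 175 of the 279 members (62.7%) lie on chromosome V, and 149 sit side by side with another member in 49 groups of neighbouring genes. The exons of 54 tested members overlap those of another gene, and since the library kit does not mark strand, reads from such a pair cannot be told apart by strand.

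After 1 h of feeding, many more receptors were lower than higher. Between F and S, 21 members rose and 86 fell (8.14% and 33.3% of 258), where 13.6% of all genes tested rose and 15.4% fell. A gene is called here when its Benjamini-Hochberg adjusted p from edgeR's quasi-likelihood test, taken over all 19050 genes, is below 0.05 and its log2 fold change exceeds 0.5 in size, and every adjusted p below is of this kind. The median log2 fold change was -0.36 over the members and -0.07 over all genes. Without S replicate 4 the counts were 21 and 79, and without F replicate 3, IF_1hr_181 and IF_1hr_186 they were 19 and 80. All CPM values and statements on overlap leave out the library scaling factors (TMM) that the test uses. These ran from 0.620 in S replicate 3 to 1.30 in IF_24hr_186. Overlap in CPM can therefore differ from overlap of the values tested.

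**Figure D1:**
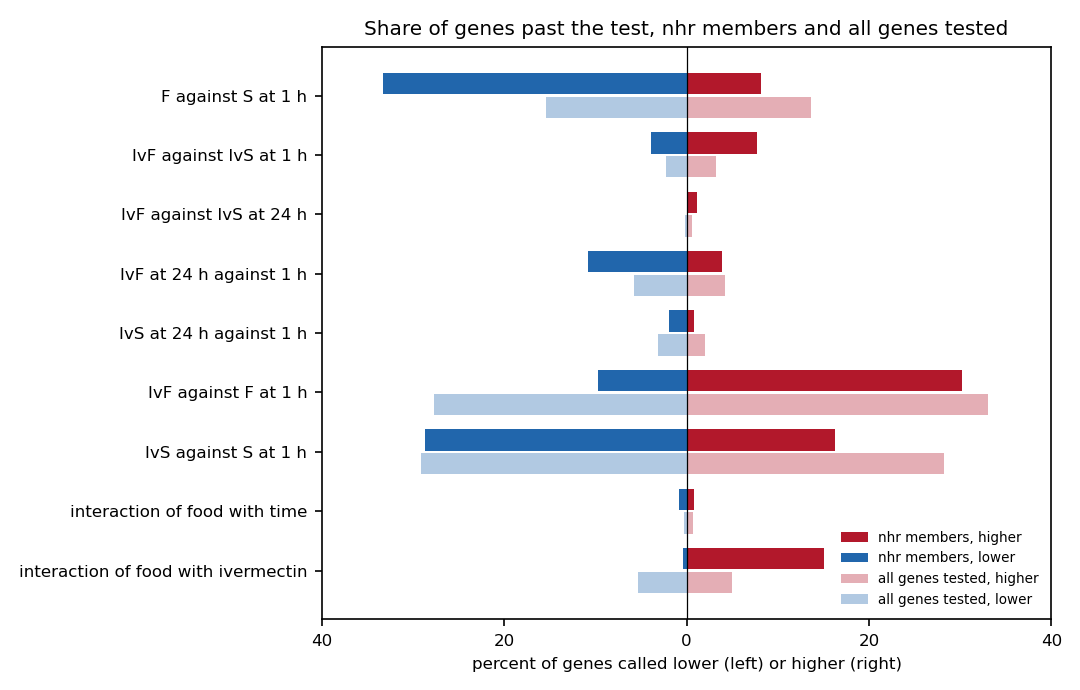
Horizontal bars give the percent of genes called higher (right of 0) or lower (left of 0) in each comparison, in full colour for the 258 nhr members and in pale colour for all 19050 genes tested. In F against S 33.3% of the members were lower, against 15.4% of all genes, and in the interaction of food with ivermectin 15.1% were positive, against 5.02%. The bars of IvF against F and of IvS against S include 48 members that passed the filter only with the help of the ivermectin libraries.

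The receptors with the largest falls on food lay on chromosome V. nhr-18 had 7.40, 9.09, 10.8 and 13.4 CPM in F, against 33.2, 39.1, 29.5 and 155 CPM in S. The groups did not overlap, although S replicate 4 stood far above the other S libraries, and the log2 fold change was -2.76 ± 0.34 (SE, adjusted p = 1.1e-06), or -1.99 (adjusted p = 9.1e-09) without it. nhr-206 had 4.73, 8.40, 9.32 and 8.65 CPM in F, against 41.2, 49.2, 33.1 and 30.1 CPM in S, a log2 fold change of -2.52 ± 0.22 (SE, adjusted p = 3.4e-09). Here every fed library lay at under 10 CPM and every starved one above 30, with S replicate 4 the lowest of the starved ones. nhr-103, next to nhr-18, had 5.44, 7.48, 4.81 and 7.89 CPM in F and 13.5, 19.0, 15.9 and 56.3 CPM in S, with -2.16 ± 0.27 (SE, adjusted p = 1.1e-06). nhr-126, of the same group of neighbours, had 12.4, 13.3, 10.1 and 8.93 CPM in F against 29.0, 35.4, 26.9 and 56.1 CPM in S, with -1.87 ± 0.17 (SE, adjusted p = 1.2e-08). In both the groups were apart and S replicate 4 was the highest starved library. Without it, both stayed past the threshold (nhr-103 at -1.58, adjusted p = 6.1e-08, nhr-126 at -1.68, adjusted p = 1.1e-08). nhr-133 had 6.69 to 8.75 CPM in F and 17.0 to 43.1 CPM in S (-1.88 ± 0.18 SE, adjusted p = 2.1e-08, or -1.57, adjusted p = 4.7e-09 without S replicate 4), and nhr-99 2.40 to 7.03 CPM in F and 10.4 to 25.1 CPM in S (-1.96 ± 0.29 SE, adjusted p = 9.4e-06).

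Among the receptors that rose, some had even values over the fed libraries and others were carried by 1 of them. nhr-202 had 29.0, 34.1, 46.3 and 31.7 CPM in F, against 8.91, 13.9, 7.47 and 10.6 CPM in S, a log2 fold change of 1.62 ± 0.17 (SE, adjusted p = 4.7e-08). nhr-86, an intestinal receptor that in C. elegans senses a bacterial metabolite and switches on immune genes, had 50.9, 57.8, 61.99 and 75.3 CPM in F, against 22.1, 23.7, 17.8 and 14.5 CPM in S, with 1.43 ± 0.15 (SE, adjusted p = 7.8e-08). nhr-270 had 18.1 to 24.4 CPM in F and 4.46 to 8.56 CPM in S, with 1.34 ± 0.24 (SE, adjusted p = 0.00013). In these receptors each fed library was higher than each starved one and no fed library stood apart. The exons of nhr-202 overlap those of its neighbour nhr-201, and those of nhr-86 overlap comt-3, whose own log2 fold change was 0.46.

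nhr-78 had 11.9, 14.6, 119.9 and 14.3 CPM in F, against 9.97, 8.91, 6.72 and 6.98 CPM in S. The groups did not overlap, but F replicate 3 alone was at a level of its own, and the log2 fold change of 2.09 ± 0.72 (SE, adjusted p = 0.031) became 0.54 (adjusted p = 0.52) without that library. It also missed the threshold without S replicate 2 (2.06, adjusted p = 0.062), S replicate 3 (2.13, adjusted p = 0.061) or S replicate 4 (1.99, adjusted p = 0.085), with the replicate number as a block (1.34, adjusted p = 0.16), with no filter on low counts (2.11, adjusted p = 0.082) and with only F and S in the fit (2.13, adjusted p = 0.091). nhr-205 had 8.65, 9.21, 40.7 and 10.5 CPM in F, against 3.25, 3.11, 3.07 and 1.60 CPM in S, with 2.40 ± 0.59 (SE, adjusted p = 0.0032). Its neighbour nhr-12 had 16.8, 20.5, 41.3 and 27.6 CPM in F, against 8.13, 7.95, 4.98 and 4.35 CPM in S, with 1.84 ± 0.39 (SE, adjusted p = 0.00077). F replicate 3 was again the highest, but both kept their call without it, IF_1hr_181 and IF_1hr_186, at 1.55 (adjusted p = 8.3e-05) for nhr-205 and 1.56 (adjusted p = 7.5e-06) for nhr-12.

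**Figure D2:**
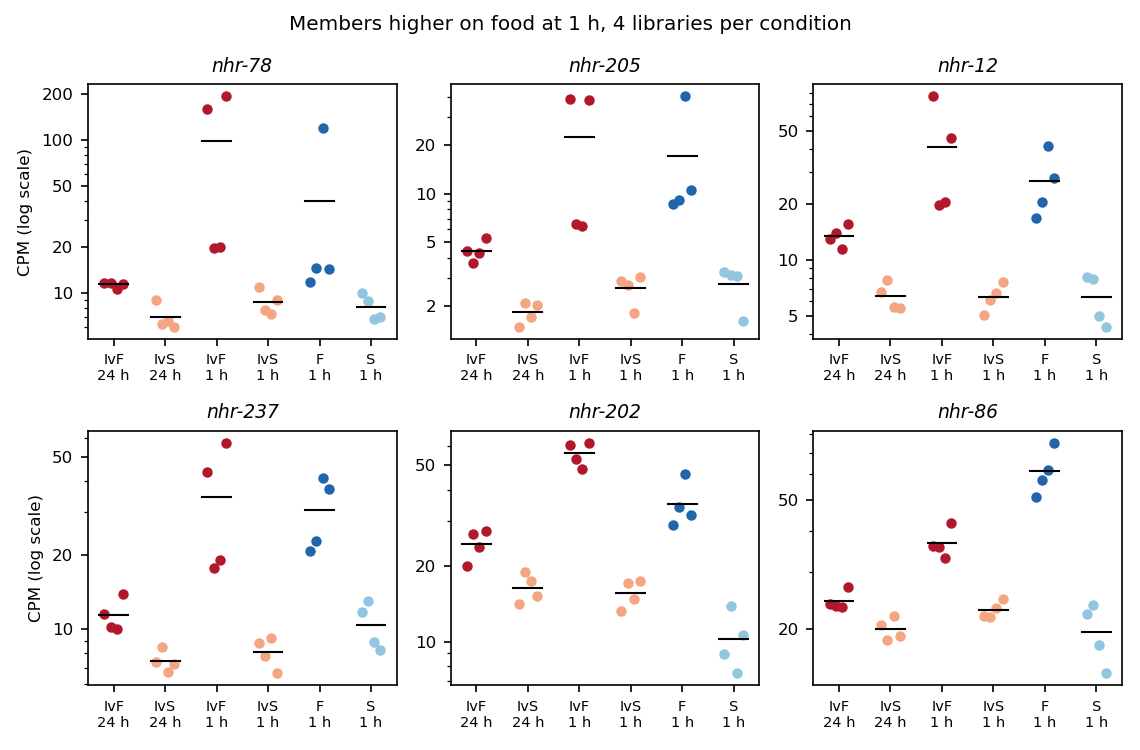
CPM on a log scale for 6 members that were higher on food at 1 h, with 1 point per library (4 in each condition, in replicate order) and a line at the mean. For nhr-78, IF_1hr_181 and IF_1hr_186 (159 and 194 CPM) and F replicate 3 (119.9 CPM) stand far above all other libraries, whereas the IvF and F libraries of nhr-202 lie close together.

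Food given under ivermectin changed fewer receptors and in other proportions. Between IvF and IvS at 1 h, 20 members rose and 10 fell (7.75% and 3.88%), where 3.27% of all genes rose and 2.29% fell, and the median log2 fold change was 0.04 over the members and 0.02 over all genes. The count depended on single libraries. Without IF_1hr_181 alone 10 members rose and 9 fell, and 13, 13 and 12 rose without I_1hr_183, I_1hr_185 and I_1hr_186 in turn. With IF_1hr_181, IF_1hr_186 and F replicate 3 left out, which leaves 2 IvF libraries at 1 h, 7 rose and 1 fell.

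The largest rises with food under ivermectin were those of nhr-78, nhr-205 and nhr-12, which were uneven among the F libraries as well. nhr-78 had 159, 19.8, 20.03 and 194 CPM in IvF, against 11.02, 7.77, 7.26 and 9.04 CPM in IvS, a log2 fold change of 3.49 ± 0.74 (SE, adjusted p = 0.0052). nhr-205 had 38.7, 6.52, 6.33 and 38.5 CPM in IvF, against 2.86, 2.70, 1.80 and 3.03 CPM in IvS, with 3.14 ± 0.59 (SE, adjusted p = 0.0016). nhr-12 had 76.9, 19.7, 20.5 and 45.8 CPM in IvF, against 5.04, 6.08, 6.66 and 7.59 CPM in IvS, with 2.75 ± 0.39 (SE, adjusted p = 9.4e-05). In each of them IF_1hr_181 and IF_1hr_186 were high, IF_1hr_183 and IF_1hr_185 were lower and close to each other, and even the lower pair exceeded all 4 IvS libraries. With the 3 uneven libraries left out, the log2 fold changes were 1.16 (adjusted p = 0.0016) for nhr-78, 1.29 (adjusted p = 0.012) for nhr-205 and 1.64 (adjusted p = 0.00017) for nhr-12. When only IvF and IvS of 1 h entered the fit, so that the spread came from these 8 libraries alone, nhr-78 (3.50, adjusted p = 0.083) and nhr-205 (3.14, adjusted p = 0.074) missed the threshold. nhr-237 followed the same division, with 43.8, 17.7, 19.1 and 57.5 CPM in IvF, against 6.62 to 9.26 CPM in IvS (2.07 ± 0.30 SE, adjusted p = 0.0001, and 1.15 (adjusted p = 0.0044) without the 3). nhr-11 had 99.1, 46.1, 33.0 and 95.2 CPM in IvF, against 12.5 to 25.6 CPM in IvS (1.87 ± 0.39 SE, adjusted p = 0.0042), and missed the threshold without them, at 1.04 (adjusted p = 0.076).

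nhr-202 was the even one among the leading rises. It had 60.2, 53.0, 48.4 and 61.7 CPM in IvF, against 13.2, 17.1, 14.7 and 17.4 CPM in IvS, a log2 fold change of 1.85 ± 0.16 (SE, adjusted p = 1.2e-07), and 1.68 (adjusted p = 7.3e-07) without the uneven libraries. Its overlapping neighbour nhr-201 had 23.2 to 33.9 CPM in IvF, against 11.3 to 12.1 CPM in IvS (1.31 ± 0.17 SE, adjusted p = 2.6e-05). nhr-203, the next gene along, had 35.2 to 47.3 CPM in IvF, against 22.9 to 35.2 CPM in IvS, which overlapped (0.55 ± 0.15 SE, adjusted p = 0.032), and its call was lost in 6 of the 8 single-library omissions, at adjusted p of 0.057 to 0.13.

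All 10 receptors that fell in IvF against IvS also fell in F against S, an overlap that was not counted over all genes. nhr-14, which in C. elegans is linked to iron uptake and to resistance against a bacterial pathogen, had 57.1, 38.8, 30.7 and 43.1 CPM in IvF, against 94.6, 88.2, 78.6 and 81.9 CPM in IvS, a log2 fold change of -0.98 ± 0.23 (SE, adjusted p = 0.0099). In F it had 31.2, 36.5, 34.4 and 62.5 CPM, against 55.5, 83.3, 52.7 and 104 CPM in S (-1.01 ± 0.24 SE, adjusted p = 0.0016). The ivermectin groups did not overlap, and F replicate 4 lay within the S range. nhr-35 had 43.1, 48.2, 57.4 and 60.8 CPM in IvF, against 111, 99.8, 111 and 101 CPM in IvS (-1.04 ± 0.27 SE, adjusted p = 0.021), with no overlap. It missed the threshold without IF_1hr_181, IF_1hr_186, I_1hr_181 or I_1hr_185, at adjusted p of 0.052 to 0.062. nhr-19 had 34.96 to 72.4 CPM in IvF, against 93.7 to 117 CPM in IvS (-0.85 ± 0.20 SE, adjusted p = 0.0094), and nhr-4 had 32.1 to 52.5 CPM in IvF, against 69.7 to 80.1 CPM in IvS (-0.75 ± 0.16 SE, adjusted p = 0.0042). nhr-133 (-0.76) and nhr-99 (-1.14), among the largest falls in F, were in this list too. The remaining members of it were nhr-54, nhr-120, nhr-141 and the pseudogene nhr-250, at log2 fold changes of -0.74 to -0.58. nhr-54 lost its call without IF_1hr_181 (-0.55, adjusted p = 0.051), and nhr-141 in 6 of the 8 single-library omissions, at adjusted p of 0.062 to 0.086. Of the 10, nhr-14 alone kept its call with the 3 uneven libraries left out.

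The feeding comparisons without and with ivermectin share no library, so their lists can be laid side by side. Of the 21 risers in F, 10 also rose in IvF (47.6% of the F list and 50.0% of the IvF list), and they were nhr-12, nhr-30, nhr-78, nhr-86, nhr-201, nhr-202, nhr-203, nhr-205, nhr-237 and nhr-270. Of them, nhr-30, nhr-86, nhr-203 and nhr-270 lost their call in IvF with the 3 uneven libraries left out. Of the 86 fallers in F, 10 also fell in IvF (11.6% of the F list). 1 member, nhr-130, was called lower in F and higher in IvF, but its fall in F went under the fold threshold without S replicate 4 (-0.48, adjusted p = 0.0088). It had 27.2, 26.8, 22.2 and 27.8 CPM in IvF against 18.6, 17.98, 16.9 and 17.2 CPM in IvS (0.56 ± 0.14 SE, adjusted p = 0.015), and 14.3, 18.8, 17.4 and 16.5 CPM in F against 19.8, 20.8, 18.1 and 30.3 CPM in S (-0.59 ± 0.14 SE, adjusted p = 0.0024). The ivermectin groups were apart, while the F and S libraries overlapped in CPM before scaling, with S replicate 4 the highest. The fallers in F had a median log2 fold change of -0.17 in IvF against IvS, with 72 of 86 below 0, and the risers one of 0.71, with 20 of 21 above 0. These overlaps were not counted over all genes here. The paper reports that, over all genes, nearly all of those called in both comparisons moved the same way. It also reports that most genes called for food under ivermectin were called for feeding. Agreement between the lists is therefore not particular to the receptors.

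**Figure D3:**
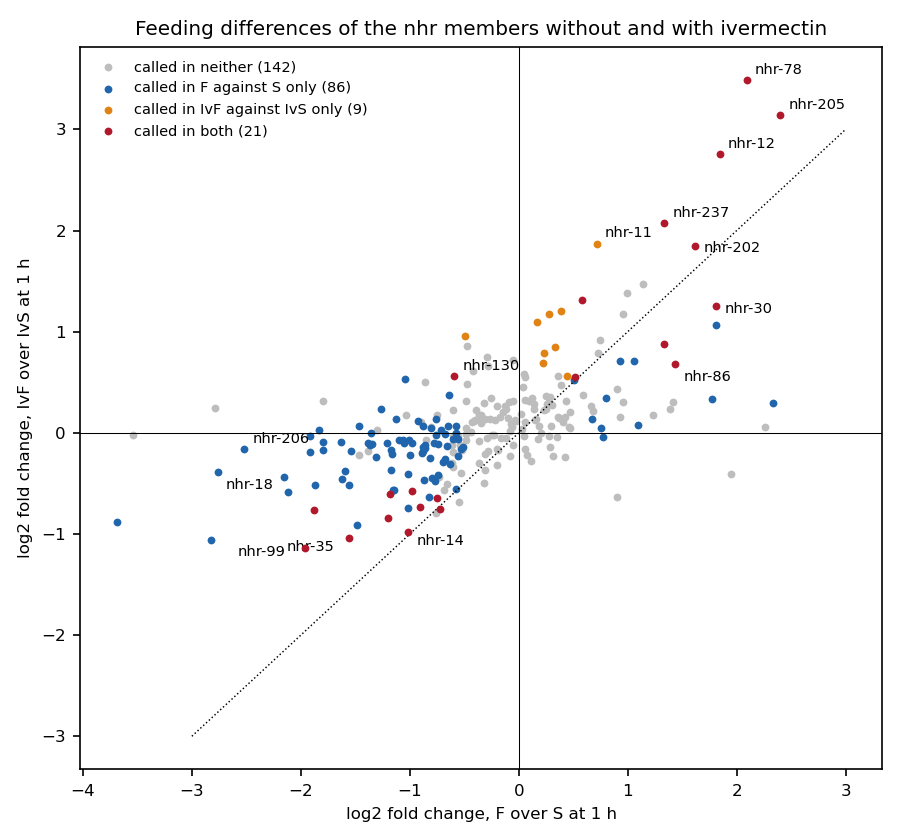
Each point is 1 of the 258 members, with the log2 fold change of F over S at 1 h on the x axis and of IvF over IvS at 1 h on the y axis, coloured by the comparison in which it was called, and a dotted line of equal change. Of the 86 points called in F against S alone, 75 lie at negative x, most of them near y = 0, and nhr-78, nhr-205 and nhr-12 lie at the upper right above the line.

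The difference between the feeding comparisons was tested as the interaction of food with ivermectin, the log2 fold change of IvF over IvS minus that of F over S. The feeding comparisons come from separate sets of libraries, so the drug and the set cannot be told apart here either. It was positive and called for 39 members and negative for 1 (15.1% and 0.388%), against 5.02% and 5.31% of all genes, with a median of 0.40 over the members and 0.10 over all genes. Of the 39, 38 were members that fell in F against S. Without S replicate 4 the counts were 48 and 1. These values share their libraries with the feeding comparisons above. nhr-18 had an interaction of 2.38 ± 0.46 (SE, adjusted p = 0.0013), or 1.60 (adjusted p = 6.5e-05) without S replicate 4, and its levels under ivermectin were 28.9, 26.6, 23.1 and 27.7 CPM in IvF, against 37.2, 35.5, 34.9 and 32.0 CPM in IvS. nhr-206 had 2.36 ± 0.29 (SE, adjusted p = 8.1e-06), with 84.3, 60.9, 58.4 and 81.3 CPM in IvF, against 93.6, 73.0, 76.7 and 76.6 CPM in IvS, which overlapped. For nhr-206 the fed larvae without ivermectin were the only condition at 1 h below 30 CPM. nhr-221 (1.89 ± 0.35 SE, adjusted p = 0.00085) and nhr-103 (1.72 ± 0.37 SE, adjusted p = 0.0029) completed the 4 largest among members of at least 5 CPM in a condition. The negative one was nhr-86, at -0.75 ± 0.21 (SE, adjusted p = 0.021). It had 35.9, 35.8, 33.1 and 42.6 CPM in IvF against 21.9, 21.8, 23.1 and 24.6 CPM in IvS, so that it rose in both comparisons and by less under ivermectin.

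**Figure D4:**
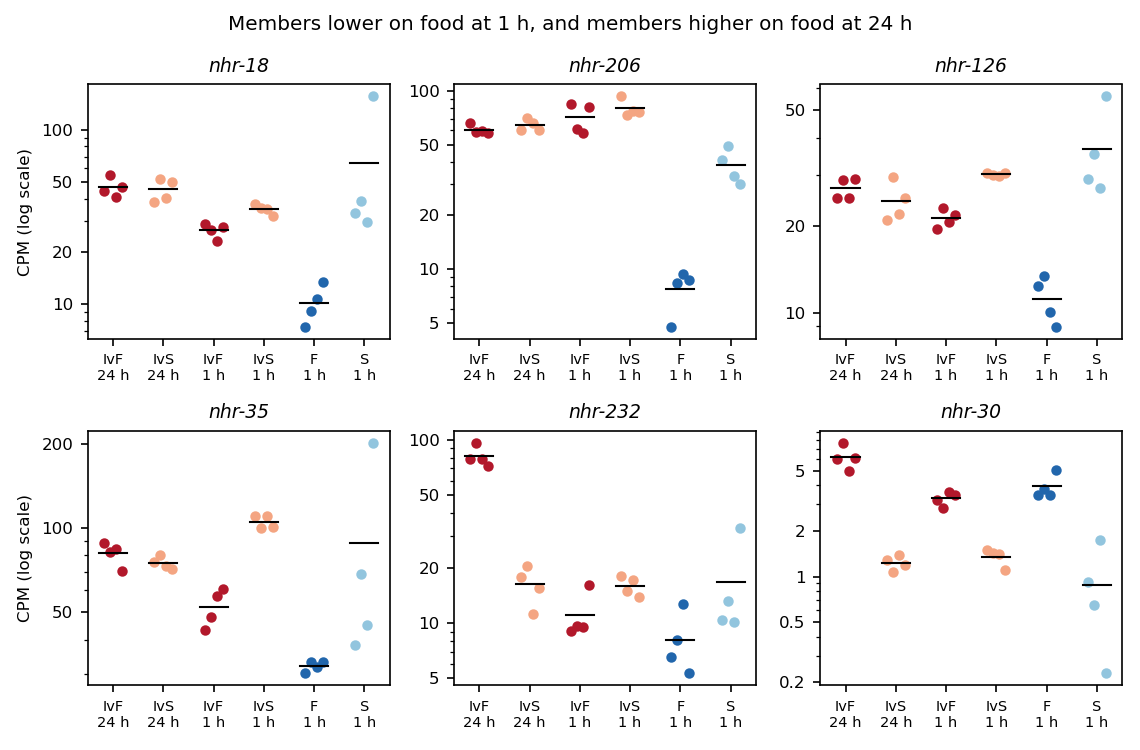
CPM on a log scale for 4 members that were lower in F than in S at 1 h (nhr-18, nhr-206, nhr-126, nhr-35) and for nhr-232 and nhr-30, which were higher in IvF than in IvS at 24 h, with 1 point per library (4 in each condition, in replicate order) and a line at the mean. For nhr-206 the 4 F libraries lie at 4.73 to 9.32 CPM, below all other libraries, and for nhr-232 the 4 IvF libraries at 24 h lie at 72.0 to 96.8 CPM, above all others.

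After 24 h with food under ivermectin, 3 receptors were higher and none was lower. Between IvF and IvS at 24 h, 3 members rose and 0 fell (1.16% and 0%), where 0.583% of all genes rose and 0.194% fell. At an unadjusted p below 0.05, 31 of the 258 members passed, and DESeq2 called 6 and edgeR's exact test 5, all of them higher. The shares over all genes were not taken for these counts, so no wider response is read from them. nhr-232 had 78.6, 96.8, 78.7 and 72.0 CPM in IvF, against 17.8, 20.6, 11.3 and 15.6 CPM in IvS, a log2 fold change of 2.22 ± 0.28 (SE, adjusted p = 3.2e-05). At 1 h it had 9.10, 9.72, 9.50 and 16.2 CPM in IvF, against 18.1, 14.97, 17.1 and 13.9 CPM in IvS (-0.57 ± 0.28 SE, adjusted p = 0.37), and in F it fell, at -1.16 ± 0.30 (SE, adjusted p = 0.0037), although F and S overlapped and S replicate 4 was the highest of them, with -0.70, adjusted p = 0.034 without it. The receptor was high in the 4 IvF libraries of 24 h and in no other condition. Its exons overlap those of sri-18, a gene at 1.54 CPM in IvF at 24 h. nhr-30 had 5.94, 7.68, 4.99 and 6.10 CPM in IvF, against 1.29, 1.07, 1.38 and 1.19 CPM in IvS at 24 h, with 2.22 ± 0.35 (SE, adjusted p = 0.00054). It was higher with food in all 3 settings, with 2.84 to 3.63 CPM in IvF, against 1.104 to 1.49 CPM in IvS at 1 h (1.25 ± 0.35 SE, adjusted p = 0.029), and 3.46 to 5.04 CPM in F and 0.229 to 1.74 CPM in S (1.81 ± 0.37 SE, adjusted p = 0.0005). No pair of groups overlapped in these 3 comparisons, and without S replicate 3 the value in F was 2.53 (adjusted p = 3.8e-06). The call in IvF against IvS at 1 h was lost without IF_1hr_181, IF_1hr_185 or any 1 IvS library, at adjusted p of 0.056 to 0.11. nhr-130 had 35.4, 33.6, 31.1 and 36.3 CPM in IvF, against 20.3, 21.5, 19.3 and 20.8 CPM in IvS, with 0.63 ± 0.14 (SE, adjusted p = 0.024). It too had no overlap, but missed the threshold without IF_24hr_181 (0.57, adjusted p = 0.12), I_24hr_181 (0.62, adjusted p = 0.079) or I_24hr_185 (0.57, adjusted p = 0.087).

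The interaction of food with time, the log2 fold change of IvF over IvS at 24 h minus that at 1 h, was called positive for 2 members and negative for 2 (0.775% each), against 0.661% and 0.31% of all genes. nhr-232 had the largest at 2.79 ± 0.40 (SE, adjusted p = 0.00037), and nhr-106 followed at 1.32 ± 0.29 (SE, adjusted p = 0.023). nhr-106 had 11.2, 13.03, 12.02 and 13.4 CPM in IvF against 8.56, 7.19, 5.53 and 5.11 CPM in IvS at 24 h, and 5.45, 4.78, 4.72 and 4.57 CPM in IvF against 8.84, 6.77, 5.998 and 6.48 CPM in IvS at 1 h, with no overlap at either time and opposite order. Its interaction missed the threshold without I_1hr_181 (1.17, adjusted p = 0.077), I_24hr_185 (1.22, adjusted p = 0.058) or I_24hr_186 (1.25, adjusted p = 0.051). nhr-202 was negative at -1.38 ± 0.22 (SE, adjusted p = 0.0012), with 19.9 to 27.4 CPM in IvF, against 14.1 to 18.9 CPM in IvS at 24 h. nhr-11 was negative at -2.41 ± 0.55 (SE, adjusted p = 0.03), and lost its call in 10 of 16 single-library omissions, at adjusted p of 0.053 to 0.08. Without IF_1hr_185 the counts were 3 positive and 7 negative.

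Between 24 h and 1 h in IvF larvae, 10 members rose and 28 fell (3.88% and 10.9%), where 4.2% of all genes rose and 5.72% fell. The largest falls were those of receptors already named for IvF against IvS at 1 h, a comparison that shares the IvF libraries of 1 h. nhr-78 had 11.7, 11.7, 10.6 and 11.5 CPM at 24 h, against 159, 19.8, 20.03 and 194 CPM at 1 h, a log2 fold change of -3.16 ± 0.72 (SE, adjusted p = 0.0058). nhr-205 was at -2.42, nhr-11 at -2.33, nhr-12 at -1.71, nhr-237 at -1.63 and nhr-202 at -1.25. With the 3 uneven libraries left out, 5 rose and 11 fell, and nhr-205 (-0.56, adjusted p = 0.31), nhr-12 (-0.59, adjusted p = 0.14) and nhr-237 (-0.71, adjusted p = 0.054) no longer passed, whereas nhr-78, nhr-11 and nhr-202 did. Same-numbered IvF libraries of the 2 times correlated in their deviations to differing degrees (r = 0.16 to 0.75), and with the replicate number as a block 16 members rose and 28 fell. nhr-232 rose to 72.0 to 96.8 CPM at 24 h, against 9.10 to 16.2 CPM at 1 h (2.87 ± 0.29 SE, adjusted p = 5.7e-07). The other rises named by the rule were nhr-106 (1.29), nhr-167 (0.95), nhr-250 (0.67), nhr-92 (0.66) and nhr-69 (0.62). Without IF_24hr_183 5 rose, and nhr-92 missed the threshold without it (0.58, adjusted p = 0.087) or without IF_1hr_181 or IF_1hr_185. When only the IvF libraries entered the fit, nhr-78 (-3.13, adjusted p = 0.051), nhr-205 (-2.39, adjusted p = 0.07) and nhr-12 (-1.66, adjusted p = 0.067) missed it as well.

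In IvS larvae, kept without food for the same interval, 2 members rose and 5 fell between 24 h and 1 h (0.775% and 1.94%), where 2.07% of all genes rose and 3.17% fell. nhr-99 had 4.44, 4.27, 6.74 and 4.28 CPM at 24 h, against 9.34, 12.9, 10.5 and 16.002 CPM at 1 h, with -1.24 ± 0.28 (SE, adjusted p = 0.0069). nhr-225 had 6.47 to 14.5 CPM at 24 h and 17.7 to 19.6 CPM at 1 h (-0.83 ± 0.19 SE, adjusted p = 0.0088), and nhr-136 17.4 to 24.8 CPM at 24 h and 30.3 to 39.8 CPM at 1 h (-0.62 ± 0.14 SE, adjusted p = 0.0073). No overlap was seen in these 3. nhr-193 (-0.63) and nhr-55 (-0.53) also fell, and nhr-231 (0.81) and nhr-3 (0.63) rose. These 4 were less firm. nhr-231 lost its call without I_24hr_183 (0.65, adjusted p = 0.051), nhr-55 without I_1hr_183 (-0.49, adjusted p = 0.047, under the fold threshold) or I_24hr_181 (-0.49, adjusted p = 0.059), and nhr-193 and nhr-3 in 5 and 7 of 8 single-library omissions.

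Of the 9 receptors with insect counterparts, 3 were called with food. In F against S, nhr-23 and nhr-91 rose and nhr-48 fell, where 13.6% of all genes rose and 15.4% fell, and nothing particular is read from so short a list. None of the 9 was called in IvF against IvS at either time. nhr-23, the counterpart of DHR3 and a regulator of moulting, had 6.24, 10.4, 9.03 and 10.8 CPM in F, against 3.75, 5.80, 3.49 and 5.84 CPM in S (0.78 ± 0.22 SE, adjusted p = 0.0068). In IvF it had 9.77, 15.5, 18.8 and 19.6 CPM, against 14.4, 15.5, 18.5 and 14.97 CPM in IvS at 1 h (-0.04 ± 0.19 SE, adjusted p = 1). The F and S libraries did not overlap, while IvF and IvS did. nhr-91, the counterpart of DHR4, had 22.8, 27.96, 23.9 and 27.5 CPM in F, against 13.2, 16.1, 10.8 and 10.8 CPM in S (0.80 ± 0.15 SE, adjusted p = 0.00024). nhr-48, related to the toxin-responsive DHR96, had 28.4, 38.7, 37.6 and 35.9 CPM in F, against 39.7, 69.9, 46.2 and 71.9 CPM in S (-0.87 ± 0.14 SE, adjusted p = 1.9e-05), and -0.46 in IvF against IvS at 1 h, where the adjusted p was 0.038 and the change stayed under the fold threshold. nhr-25, the Ftz-F1 counterpart of the epidermis, stood at 0.37 in F against S (adjusted p = 0.033), also under it.

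The others of this group were the NR4A counterpart nhr-6, the DHR96 relative nhr-8, the DHR78 counterpart nhr-41, the tailless counterpart nhr-67 and the E75 counterpart nhr-85, which acts in developmental timing. Their log2 fold changes in F against S lay between -0.26 and 0.36, with adjusted p of 0.17 to 0.74. With time in IvF, nhr-6 fell to 25.3, 19.96, 24.97 and 27.98 CPM at 24 h, against 40.6, 51.9, 50.0 and 45.4 CPM at 1 h (-0.97 ± 0.23 SE, adjusted p = 0.0063). nhr-91 (-0.68) and nhr-85 (-0.53) fell as well, and the call of nhr-85 was lost without IF_1hr_181, IF_1hr_183, IF_24hr_183, IF_24hr_185 or IF_24hr_186 (adjusted p = 0.058 to 0.11).

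Of 8 receptors tied to diet and metabolism, 1 rose and 3 fell in F against S, where 13.6% of all genes rose and 15.4% fell, and without S replicate 4 only 1 of the 3 falls was called. nhr-62, needed for the longer life of worms on restricted diet, rose, with 27.7, 36.02, 60.5 and 45.1 CPM in F and 18.5, 26.7, 18.4 and 12.9 CPM in S (0.93 ± 0.24 SE, adjusted p = 0.0042). It was the one riser among them, and F replicate 3 was its highest library (0.72, adjusted p = 0.023 without it). nhr-69, which acts in insulin release, had 28.5, 28.7, 31.7 and 31.6 CPM in F and 41.4, 44.9, 33.6 and 58.7 CPM in S (-0.74 ± 0.16 SE, adjusted p = 0.001). nhr-10, which with nhr-68 switches on the propionate shunt, had 77.8, 90.1, 74.7 and 68.98 CPM in F and 93.3, 112, 72.6 and 162 CPM in S (-0.65 ± 0.16 SE, adjusted p = 0.002), which overlapped in CPM before scaling, and -0.48 (adjusted p = 0.01), under the fold threshold, without S replicate 4. nhr-64, a regulator of fat content, had 8.30, 7.82, 8.55 and 8.74 CPM in F and 7.36, 13.9, 9.05 and 34.7 CPM in S (-1.06 ± 0.28 SE, adjusted p = 0.0049), and -0.48 (adjusted p = 0.056) without it. F and S overlapped there too, and both calls were lost without that 1 library.

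The other 4 were not called in F against S. nhr-68 had 125.7, 109.7, 116 and 45.7 CPM in F and 154, 174, 118 and 49.3 CPM in S (-0.53 ± 0.31 SE, adjusted p = 0.21). Replicate 4 was the low library in both groups. nhr-114, which lets worms thrive on diets poor in vitamin B12 or tryptophan, had 56.7, 68.4, 62.4 and 61.0 CPM in F and 73.3, 94.4, 75.9 and 24.5 CPM in S (-0.35 ± 0.27 SE, adjusted p = 0.36), with S replicate 4 again low. nhr-13 stood at -0.32 and nhr-76, which links serotonin to fat loss, at -0.61 (adjusted p of 0.28 and 0.057). In IvF against IvS none of the 8 was called at 1 h or at 24 h. The 5 genes of the propionate shunt that nhr-10 and nhr-68 control had a median log2 fold change of -0.53 for F over S and of -0.17 for IvF over IvS after 1 h, and none was called in either.

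Among 5 receptors of toxin and pathogen responses, nhr-86 rose and nhr-14 fell with food both without and with ivermectin, as given above. nhr-176, which in C. elegans switches on a drug-metabolising cytochrome, had 7.67, 4.95, 8.07 and 6.56 CPM in F and 9.55, 8.37, 8.05 and 11.4 CPM in S (-0.64 ± 0.21 SE, adjusted p = 0.023). F and S overlapped by 1 library of each, and the call was lost without F replicate 2 or 4 or S replicate 1, 3 or 4 (adjusted p = 0.051 to 0.11). nhr-45, which acts in defence when mitochondria are impaired, had 153, 149, 143 and 143 CPM in IvF, against 94.7, 112, 91.4 and 110.5 CPM in IvS at 24 h, which did not overlap but did not pass (0.42 ± 0.14 SE, adjusted p = 0.3). nhr-8, which protects worms against several toxins, had 55.4, 49.7, 47.0 and 39.4 CPM in IvF, against 46.6, 45.4, 46.7 and 36.6 CPM in IvS at 1 h (0.14 ± 0.18 SE, adjusted p = 0.96), and was called in none of the 9 comparisons. The P-glycoproteins, drug exporters of which 15 were tested, rose in 9 cases and fell in 1 in F against S, where 13.6% of all genes rose and 15.4% fell. In IvF against IvS they rose in 9 cases at 1 h (all genes 3.27%) and in 2 at 24 h (all genes 0.583%). They also rose in 10 cases in IvS against S (all genes 28.2%) and in 7 in IvF against F (all genes 33.1%). In those 2 comparisons the drug and the set of libraries cannot be told apart. The list was not tested as a set.

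Of the receptors known from a tissue, nhr-2 of the early embryo, nhr-31 of the excretory cell and nhr-40 of muscle, none was called for food. nhr-31 had 161 to 230.0 CPM in F and 118.9 to 201.6 CPM in S (0.11 ± 0.17 SE, adjusted p = 0.68). nhr-2 had 5.26, 6.21, 12.1 and 5.23 CPM in F and 3.61, 3.54, 1.08 and 3.55 CPM in S, which did not overlap but did not pass (1.14 ± 0.50 SE, adjusted p = 0.083). Of 5 nuclear receptors with other names (daf-12, fax-1, odr-7, sex-1, unc-55), only sex-1, a regulator of sex determination and dosage compensation, was called for food, and it rose in F against S (log2 fold change 0.79 ± 0.16, adjusted p = 0.00031). Of the co-regulators mdt-15, cbp-1 and din-1, mdt-15, a Mediator subunit that partners several of the receptors, fell in F against S, with 247 ± 31.9 CPM in F and 319.8 ± 67.97 CPM in S (SD, n = 4 each; log2 fold change -0.54 ± 0.15, adjusted p = 0.0067).

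In several of the 49 groups of neighbouring receptors, all called members had 1 direction in F against S. Falls outnumbered rises among the members, at 86 to 21, and no share was taken over other neighbouring genes. A shared direction is therefore not read as a trait of neighbours. The 7 genes from nhr-56 to nhr-96 on chromosome V (nhr-56, nhr-128, nhr-103, nhr-18, nhr-126, nhr-134, nhr-96) all fell, by log2 fold changes of -2.76 to -0.74, and none of them was called in IvF against IvS at 1 h, where the values were -0.51 to -0.11. The 6 from nhr-99 to nhr-106 (nhr-99, nhr-55, nhr-130, nhr-212, nhr-211, nhr-106) also all fell in F, at -1.96 to -0.59, with nhr-130 under the fold threshold without S replicate 4, but split in IvF, where nhr-99 fell, nhr-130 rose and the remainder was not called. In the group of 5 with nhr-201, nhr-202 and nhr-203, those 3 rose in both comparisons and none fell. The exons of nhr-201 and nhr-202 overlap, and the call of nhr-203 in IvF was lost in most single-library omissions. Of the 8 from nhr-186 to nhr-124, 2 rose in F and none fell. The group from nhr-179 to nhr-238 held 1 rise and 1 fall. In the pair nhr-205 and nhr-12 both rose in both comparisons. Whether near-identical copies exchange reads was not tested, since no sequence was used.

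**Figure D5:**
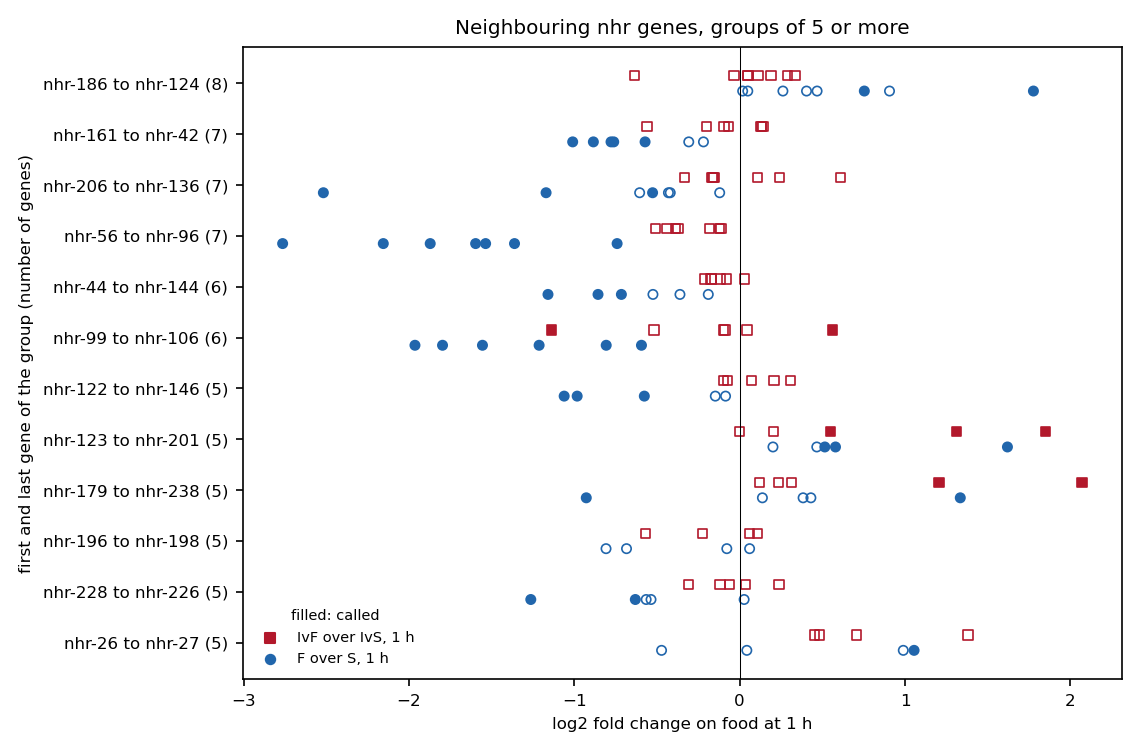
Log2 fold changes with food at 1 h for the 12 groups of 5 or more neighbouring members, named by the first and last gene, with squares for IvF over IvS, circles for F over S, and filled marks for called members. All 7 circles from nhr-56 to nhr-96 and all 6 from nhr-99 to nhr-106 are filled and left of 0, while their squares lie closer to 0.

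By chromosome, 61 of the 166 tested members on V fell in F against S and 14 rose, and their median log2 fold change was -0.50. All 4598 tested genes of chromosome V had a median of -0.17, with 17.96% called lower and 11.05% higher. The 92 members elsewhere included 25 that fell and 7 that rose. Of all tested genes on the other chromosomes, 12.7% to 15.7% were called lower and 10.1% to 17.3% higher. Falls above the share of all genes were thus not confined to members on V. Of the 12 pseudogenes tested, 4 fell and 1 rose, where 15.4% of all genes fell and 13.6% rose, and nothing is read from so few.

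Comparisons of larvae with and without ivermectin also compare the sets of libraries. Between IvF and F at 1 h, 78 members rose and 25 fell (30.2% and 9.69%), where 33.1% of all genes rose and 27.7% fell, and the median log2 fold change was 0.26 over the members and 0.13 over all genes. Between IvS and S, 42 rose and 74 fell (16.3% and 28.7%), where 28.2% of all genes rose and 29.1% fell, with medians of -0.25 over the members and 0.04 over all genes. This balance moved with the scaling, and with DESeq2's size factors, which shift the median of all genes by 0.13 log2 units in both, 47 rose and 44 fell in IvS against S. In IvF against F they gave 92 and 16. Without I_1hr_183, 47 fell in IvS against S, and without IF_1hr_185, 16 fell in IvF against F.

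For some members the filter on low values set the direction. Of the 258 tested members, 48 exceeded 1 CPM in fewer than 4 of the 8 libraries without ivermectin and so passed only with the help of the ivermectin libraries. The counts and medians given above for IvF against F and IvS against S include these 48, so no result is read from those counts. The 48 include all 41 members with a mean under 1 CPM in both F and S. For these 41 the median of the means was 1.22 CPM in IvF and 0.238 CPM in F, and 1.04 CPM in IvS and 0.178 CPM in S. Of the 41, 26 rose in IvF against F and 21 in IvS against S, and 0 fell in either, a direction that the filter favours. The share of reads outside annotated features was higher in the ivermectin libraries too. With that share as a covariate, 66 members rose and 19 fell in IvF against F, and 30 rose and 45 fell in IvS against S. Its part in the levels of the low members was not tested.

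Among members with at least 5 CPM, a few differed widely between the sets. nhr-119 had 37.6, 23.01, 28.2 and 28.2 CPM in IvF, against 0.803, 1.496, 0.865 and 0.950 CPM in F (4.604 ± 0.55 SE, adjusted p = 3.1e-07), and 20.1, 36.3, 24.1 and 36.8 CPM in IvS, against 0.636, 0.752, 2.82 and 9.38 CPM in S (2.74 ± 0.47 SE, adjusted p = 3.7e-05). nhr-88 had 115, 93.7, 97.8 and 89.0 CPM in IvF, against 6.33, 9.67, 7.21 and 11.3 CPM in F (3.28 ± 0.37 SE, adjusted p = 1.1e-07), and 88.2, 131, 107 and 102 CPM in IvS, against 8.13, 17.1, 17.2 and 55.6 CPM in S (1.74 ± 0.34 SE, adjusted p = 0.00015). Both were higher in each ivermectin library of 1 h than in each library without it, and S replicate 4 was the highest of those without. Leaving it out gave 3.85 (adjusted p = 1.2e-07) for nhr-119 and 2.45 (adjusted p = 1.4e-07) for nhr-88 in IvS against S. nhr-225 (2.25 in IvF against F, 1.83 in IvS against S) and nhr-141 (2.07 and 1.67) were likewise higher in both. nhr-206 rose by 2.96 in IvF against F and nhr-76 by 1.52. Falls without overlap in IvF against F were those of nhr-86 (-1.003), nhr-270 (-0.93), nhr-121 (-0.89), nhr-283 (-0.77) and nhr-36 (-0.64). Of these, nhr-283 missed the threshold without IF_1hr_183 (-0.58, adjusted p = 0.058), and comt-3, whose exons overlap nhr-86, fell too, at -1.75 (adjusted p = 9e-07). In IvS against S they were those of nhr-286 (-1.25), nhr-10 (-1.14), nhr-53 (-1.13), nhr-176 (-1.08) and nhr-120 (-1.04).

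The role lists held rises and falls between the sets, where the drug and the set of libraries cannot be told apart. nhr-23 had 14.4 to 18.5 CPM in IvS, against 3.49 to 5.84 CPM in S (1.33 ± 0.21 SE, adjusted p = 9.8e-06). nhr-41 had 31.9 to 38.8 CPM in IvS, against 7.43 to 19.9 CPM in S (1.02 ± 0.17 SE, adjusted p = 2.4e-05). nhr-48 and nhr-6 rose in both comparisons as well, at 1.08 and 0.98 in IvF against F, and nhr-64 rose in IvF against F. Falls were called for nhr-25 and nhr-31 in IvF against F and for nhr-67, nhr-68 and nhr-69 in IvS against S. They add to those of nhr-86, nhr-10 and nhr-176 given above. nhr-114 had 191, 139, 150.96 and 138 CPM in IvF, against 56.7, 68.4, 62.4 and 61.0 CPM in F (1.08 ± 0.27 SE, adjusted p = 0.0016), with no overlap. nhr-8 had 39.4 to 55.4 CPM in IvF, against 28.7 to 38.2 CPM in F and was not called (0.29 ± 0.18 SE, adjusted p = 0.15).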

How the data were processed

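RNA of 24 L1 libraries was prepared with a non-directional kit and sequenced. The authors aligned reads with Bowtie 1.1.2 to the WS210 genome with WS220 transcripts and deposited 1 table of whole-number HTSeq counts per library, without pooling. The HTSeq mode and strand setting are not given in the sources used here, and its 5 total lines were left out. Names came from the WBcel235 annotation or, for 14 pseudogenes of the family, the RefSeq table, and 1343 identifiers had none.

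Counts were fitted in edgeR 4.0.16 (R 4.3.3; TMM scaling, robust quasi-likelihood fit of 6 group means, genes above 1 CPM in at least 4 libraries) and tested over all genes. The fit was also run on simulated counts with changes in F against S only, and its result is not given here. DESeq2 1.42.0 was an alternative.

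Same-numbered libraries correlated positively in their deviations between IvF at 24 h and at 1 h (r = 0.16 to 0.75), but not always most with their own number. IF_1hr_185 had r = 0.16 with IF_24hr_185 and 0.56 with IF_24hr_186. The numbers were therefore not shown to pair them, and the block was used as an alternative only. Named members were the 6 largest rises and falls per comparison (4 for interactions) among called members with at least 5 CPM in a condition and, for 2 conditions, no overlap in CPM, plus role lists, members called alike in both feeding comparisons at 1 h, and the 5 highest and lowest levels. The members and lists were chosen with earlier results of these data known. Sequences and proteins of the receptors were not used here.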

Additional observations from a re-analysis of the deposited data

Results flagged for a closer look

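The largest single departures were those of a fed library and a starved one. In F, replicate 3 had 119.9 CPM of nhr-78 (other 3 libraries 11.9 to 14.6) and 40.7 CPM of nhr-205 (8.65 to 10.5), and each lay far from the rest of its condition. In S, replicate 4 had 155 CPM of nhr-18 (29.5 to 39.1), 56.3 CPM of nhr-103 (13.5 to 19.0), 33.0 CPM of nhr-232 (10.1 to 13.2) and 1.60 CPM of nhr-205 (3.07 to 3.25).

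IF_1hr_181 stood apart in 5 receptors. It had 26.8 CPM of nhr-36 (others 22.7 to 23.3), 29.9 CPM of nhr-41 (36.8 to 38.0), 7.35 CPM of nhr-54 (12.98 to 13.5), 6.58 CPM of nhr-141 (8.87 to 9.25) and 5.55 CPM of nhr-176 (8.77 to 9.08). I_1hr_181 was low for nhr-41 at 31.9 CPM (37.8 to 38.8) and for nhr-91 at 15.9 CPM (18.5 to 18.9).

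Of the remaining libraries at 1 h, F replicate 4 had 62.5 CPM of nhr-14 and F replicate 2 had 230.0 CPM of nhr-31. IF_1hr_186 had 18.8 CPM of nhr-55 and 16.2 CPM of nhr-232, IF_1hr_185 had 8.41 CPM of nhr-121 and IF_1hr_183 had 9.51 CPM of nhr-270. At 24 h, IF_24hr_183 had 157 CPM of nhr-31 and 11.8 CPM of nhr-55, and IF_24hr_186 had 26.8 CPM of nhr-86 and 6.73 CPM of nhr-283. I_24hr_183 had 11.1 CPM of nhr-286, I_24hr_185 had 6.74 CPM of nhr-99 and I_24hr_186 had 10.1 CPM of nhr-250. In all, 26 of 366 groups of 4 libraries (7.10%) held such a library by Dixon's criterion, where chance gives about 1 in 20.

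The effect of food differed between the 2 times, by the test of the interaction, for nhr-232 (2.79 log2 units), nhr-106 (1.32), nhr-202 (-1.38) and nhr-11 (-2.41). Among the named receptors it differed between larvae with and without ivermectin for nhr-18 (2.38), nhr-206 (2.36), nhr-221 (1.89), nhr-103 (1.72), nhr-176 (1.02), nhr-10 (0.72) and nhr-86 (-0.75).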

How the results depend on the processing

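No named receptor changed direction past the threshold under any alternative, and of the named pairs of gene and comparison 76 kept their call under every alternative and 50 did not, and 97 kept it with each library left out and 29 did not. In IvF against IvS at 24 h, where 3 members were called, DESeq2 gave 6, and edgeR's exact test, the fit of only those conditions, a covariate for reads outside features and the replicate block gave 5 each. With F replicate 3, IF_1hr_181 and IF_1hr_186 left out, a choice made after seeing the data, 8 members were called in IvF against IvS at 1 h and 16 in IvF at 24 h against 1 h. Counting protein-coding members alone, also chosen after seeing the data, moved no count by over 1.5 times. In IvS at 24 h against 1 h (7 called) no filter gave 4, in IvS against S (116) a minimum mean of 5 CPM gave 56 and the covariate 75, and in the interaction of food with time (4) DESeq2 gave 10. With 1 library left out, the counts were 96 to 104 in F against S, 19 to 30 in IvF against IvS at 1 h (19 without IF_1hr_181), 2 to 4 at 24 h, 27 to 39 in IvF with time, 5 to 6 in IvS with time, 85 to 103 in IvF against F, 84 to 110 in IvS against S, 2 to 10 in the interaction with time (10 without IF_1hr_185, 2 without I_1hr_181 or I_24hr_186) and 34 to 49 in that with ivermectin. The cause of these shifts was not tested. The libraries without ivermectin were shallower, so that values of members under 1 CPM in F and S rest on the fewest reads.

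The replicate block gave 108 members in F against S, 31 in IvF against IvS at 1 h, 44 in IvF with time, 9 in IvS with time, 6 in the interaction with time and 45 in that with ivermectin. It ended no named call but that of nhr-78 in F against S. In IvF with time, IF_1hr_185 was closer to IF_24hr_186 than to its own number. Outside IvF with time, the same-numbered libraries did not all correlate above 0.1 in their deviations from the group means. The numbers were not taken to pair libraries in the main test of any comparison. The correlations were 0.058 to 0.50 between F and S, above 0.1 in 3 of the 4 pairs, with F replicate 3 closer to S replicates 1 and 2 than to its own number. They were -0.34 to -0.20 between IvS at 24 h and 1 h and -0.25 to 0.53 between IvF and IvS at 1 h. No paired analysis was possible for IvF against F and IvS against S because their libraries share no number.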
